A study of Mus musculus with 6 samples.

Results

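The genes described here encode 9 enzymes or enzyme subunits of the citric acid cycle: Cs, Idh2, Idh3a, Idh3b, Ogdh, Suclg1, Sdha, Fh1 and Mdh2. They were taken by gene name from the gene probes of the arrays, where 12 probes carry these names, and they are 9 of the 22991 genes tested. The hearts came from male C57BL/6 mice aged 8 weeks per the labels, in which the left anterior descending coronary artery had been tied off to cause a myocardial infarction. On 3 consecutive days the mice had been given, through the tail vein, 80 mg/kg of an antagomir, a chemically modified antisense strand, against miR-433 or of a scrambled control. Total RNA was taken from heart samples 21 days after the infarction, and 3 antagomir and 3 control samples were each hybridised to a 1-colour Agilent array. The study asked whether blocking miR-433 limits cardiac fibrosis. Every sample of both groups had an infarct, and no heart without one was analysed here. The labels do not state which part of the heart was sampled, nor that each array holds a separate mouse, so the tests measure spread between these samples, which may be technical.

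The citric acid cycle runs in the mitochondrial matrix. It oxidises the acetyl group of acetyl-CoA, which the heart draws mostly from fatty acids and also from pyruvate, and hands the electrons to the respiratory chain as NADH and, through succinate dehydrogenase, as reduced ubiquinone. Heart muscle is among the tissues richest in mitochondria, and cardiomyocytes hold most of them. In failing and infarcted hearts, transcripts of oxidative metabolism are known to be low.

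The microRNA that the antagomir blocks is given as context for the treatment, with bases 2 to 8, the seed, in capitals. RefSeq (GRCm38.p6) lists both arms on chromosome 12, plus strand, and the labels do not say which arm was targeted.
mmu-miR-433-3p: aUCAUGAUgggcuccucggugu
mmu-miR-433-5p: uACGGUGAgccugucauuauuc

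The RefSeq promoter windows were read as context, taking the 250 bases before each start site (GRCm38.p6, 13 windows for 8 of the 9 genes, with Idh3a not matched). Whether the motifs bear on the array values was not tested. Motifs were searched on both strands, and the motifs do not overlap each other in the sequences shown. A gene with several start sites counts once, with a match in any of its windows. The palindromic site of NRF-1, a transcription factor of nuclear genes for mitochondrial proteins, was found in Sdha alone of the 8, in 3 places, and in 4.23% of all 27025 genes with a window. The element of the oestrogen-related receptors, TNAAGGTCA, was found in 0 of the 8 and in 1.30% of all genes, and the ETS site CCGGAAG in 0 of the 8 and in 7.83%. The Sp1 site GGGCGG was found in 5 of the 8 (Cs, Idh2, Ogdh, Fh1 and Mdh2) and in 35.4% of all genes. Ogdh has several windows, and counted by window the site was in 6 of 13, against 32.7% of all windows. The share of G and C in the members' windows ran from 46.8% (Idh3b) to 74% (a window of Ogdh). The median of all windows was 52.4%. The 2 promoters printed are those in which a match lies outside every annotated gene, with the matches in capitals. For Sdha only the 76 bases next to the start site are given (chr13:74350241-74350316, minus strand), since the neighbouring gene Ccdc127 overlaps the rest of the window. They hold 2 of the 3 NRF-1 matches. For Fh1 the whole window is given (chr1:175625636-175625885, minus strand), with its Sp1 match. A match is a string of letters, not a binding site.
Sdha promoter: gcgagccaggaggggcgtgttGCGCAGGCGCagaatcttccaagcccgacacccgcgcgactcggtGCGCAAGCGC
Fh1 promoter: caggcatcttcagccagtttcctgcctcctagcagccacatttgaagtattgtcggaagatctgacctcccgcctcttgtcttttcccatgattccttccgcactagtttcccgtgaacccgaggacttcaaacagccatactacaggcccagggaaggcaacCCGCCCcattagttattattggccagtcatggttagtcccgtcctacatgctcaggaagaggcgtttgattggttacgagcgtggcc

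On each array, 55.2% to 58.5% of gene spots were well above background, except on antagomir array 3, where 73.6% were. The tissue label was borne out by cardiomyocyte markers: all 12, Myh6 and Tnnt2 among them, were well above background on all 6 arrays. All 6 arrays lay on 1 slide, with control arrays 1 and 2 in row 1 and the other 4 arrays in row 2. A level is the log2 signal of a probe after subtracting the 75th percentile of the gene probes of its array. A fold change is the mean antagomir level minus the mean control level, so also in log2 units, and n = 3 per group throughout. The number of arrays limits the precision.

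All 12 probes of the members were well above background on all 6 arrays. With the antagomir, the 9 genes were all higher by small amounts, from 0.24 for Ogdh to 0.47 for Idh3b, with a median of 0.35, the value of Sdha, which is a 1.27-fold difference. Of all genes tested, 62.6% were higher, with a median of 0.092. None of the 9 passed an adjusted p under 0.05 with limma, and 0 had an unadjusted p under 0.05. Over all genes, 0.013% passed the adjusted threshold in either direction and 3.05% were higher with an unadjusted p under 0.05. With a variance trend and robust moderation in limma, Cs, Idh2 and Mdh2 had an unadjusted p under 0.05, against 3.12% of all genes, and with array weights Idh2 did, against 5.97%. For 4 of the 9, every antagomir array lay above every control array, against 8.78% of all genes. Control array 2 was the lowest of the 6 arrays for all 9 members, as it was for 36.7% of all genes. The plot of levels by array shows this for each member.

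**Figure D1:**
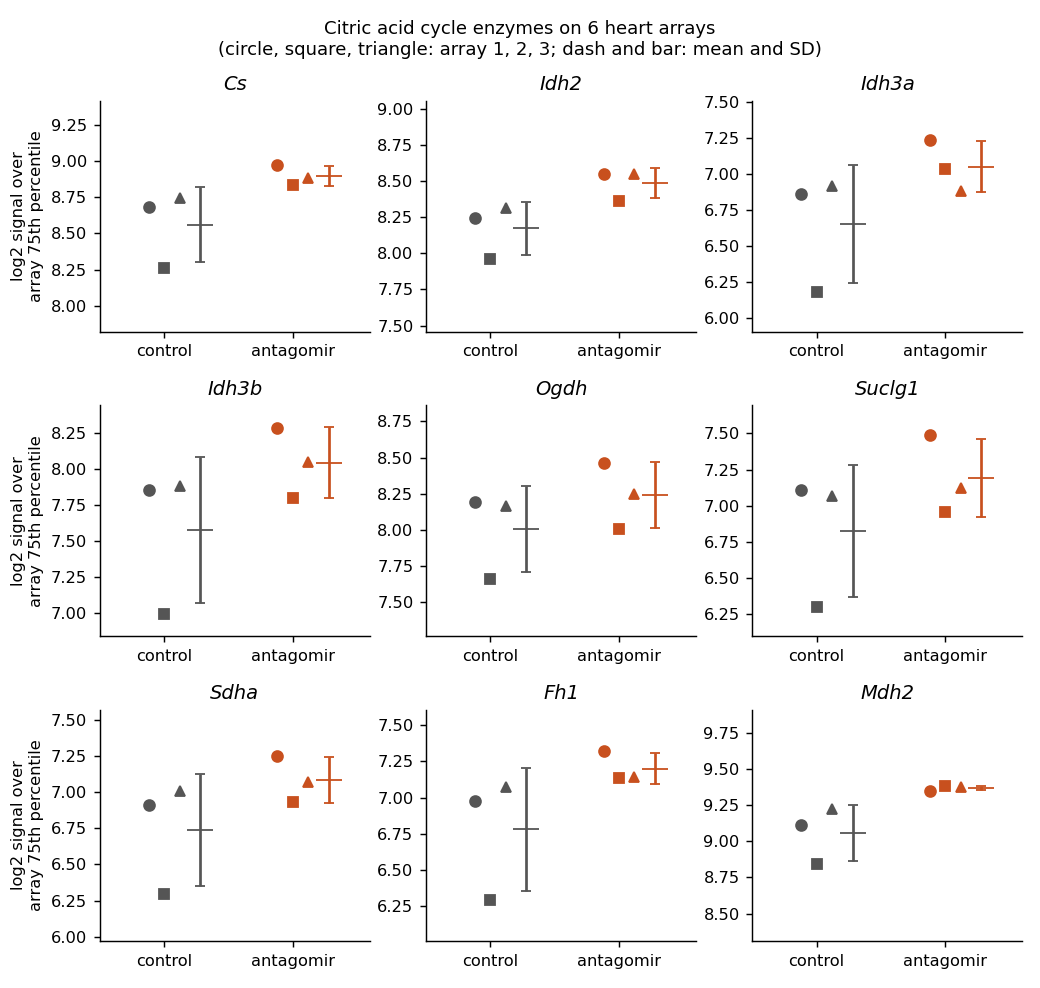
Level of each of the 9 enzymes on the 6 arrays, as log2 signal minus the array's 75th percentile, in 9 panels of equal height in log2 units (grey: control, orange: antagomir; circle, square and triangle: array 1, 2 and 3; dash and bar: mean and SD, n = 3). The grey square, control array 2, is the lowest point in every panel, and the groups do not overlap for Cs, Idh2, Fh1 and Mdh2.

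Cs encodes citrate synthase, which joins acetyl-CoA to oxaloacetate and opens the cycle. Its probe lies on mm9 chromosome 10 from 127799428 to 127799487. Levels of Cs on control arrays 1 to 3 were 8.68, 8.26 and 8.74, and those on antagomir arrays 1 to 3 were 8.98, 8.84 and 8.89; values of the other genes follow the same order. Every antagomir array was above every control array, and controls spread more widely (SD 0.26) than antagomir samples (SD 0.071). The group difference of Cs was 0.34 (SE 0.17, 95% interval −0.086 to 0.76, limma adjusted p = 0.691).

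Isocitrate is oxidised to 2-oxoglutarate by 2 kinds of mitochondrial enzyme. Idh2 encodes the NADP-dependent one, which also supplies NADPH for antioxidant defence (probe on chromosome 7 from 87239736 to 87239795). The levels of Idh2 were 8.24, 7.96 and 8.31 in controls and 8.55, 8.36 and 8.55 with the antagomir. The groups did not overlap, although antagomir array 2 exceeded control array 3 only slightly. For Idh2 the fold change was 0.31 (SE 0.15, interval −0.064 to 0.69, limma adjusted p = 0.691).

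Idh3a encodes the catalytic subunit of the NAD-dependent enzyme, a regulated step of the cycle (probe on chromosome 9 from 54451368 to 54451427). The levels of Idh3a were 6.86, 6.18 and 6.91 in controls and 7.23, 7.03 and 6.88 with the antagomir. Antagomir array 3 fell between control arrays 1 and 3, so the groups overlapped. Idh3a thus had a fold change of 0.40 (SE 0.24, interval −0.19 to 0.98, limma adjusted p = 0.691).

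Idh3b encodes a further subunit of the same enzyme, needed for its assembly and regulation (probe on chromosome 2 from 130106776 to 130106835). Its levels were 7.85, 6.99 and 7.88 in controls and 8.28, 7.80 and 8.05 with the antagomir. It had the widest range over arrays of the 9 members, 1.29, and antagomir array 2 was below control arrays 1 and 3. It also had the largest fold change, 0.47 (SE 0.29, interval −0.24 to 1.17, limma adjusted p = 0.691).

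Whether the isocitrate dehydrogenases differed unequally was tested on the within-array ratios of 3 pairs. The log2 ratio of Idh2 to Idh3a was lower by 0.084 on average with the antagomir (difference −0.084), with deviations from the control mean of −0.14, 0.26 and −0.12 in controls and −0.21, −0.19 and 0.14 with the antagomir. That of Idh2 to Idh3b differed by −0.15 and that of Idh3a to Idh3b by −0.069. By a two-sided exact permutation test, which cannot give less than 0.1 with 3 against 3, p was 0.50, 0.70 and 0.60 in that order, and 0.70 for each after adjustment over the 3 pairs. An unequal change was therefore not detected at this sample size.

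Ogdh encodes the E1 component of the 2-oxoglutarate dehydrogenase complex, which makes succinyl-CoA and is activated by calcium. On its brightest probe (chromosome 11 from 6256583 to 6256642) the levels were 8.19, 7.66 and 8.16 in controls and 8.46, 8.01 and 8.25 with the antagomir. Antagomir array 2 was below control arrays 1 and 3, and this was the smallest fold change of the members (0.24, SE 0.21, interval −0.28 to 0.755, limma adjusted p = 0.717). Another probe, from 6256511 to 6256570, gave 0.24 (SE 0.22), and the third, at chromosome 11 from 6258910 to 6258969, gave 0.33 (SE 0.25), all of the same sign.

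Suclg1 encodes the alpha subunit of succinyl-CoA synthetase, the step that yields ATP or GTP directly (probe on chromosome 6 from 73221044 to 73221103). The levels of Suclg1 were 7.11, 6.30 and 7.07 in controls and 7.49, 6.96 and 7.12 with the antagomir. Antagomir array 1 was the highest and antagomir array 2 lay below control arrays 1 and 3. For Suclg1 the fold change was 0.37 (SE 0.28, interval −0.31 to 1.04, limma adjusted p = 0.694).

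Sdha encodes the flavoprotein subunit of succinate dehydrogenase, which is at once an enzyme of the cycle and complex II of the respiratory chain (probe on chromosome 13 from 74460310 to 74460369). Its levels were 6.91, 6.29 and 7.01 in controls and 7.25, 6.93 and 7.07 with the antagomir. Only antagomir array 2 fell below a control array, control array 3. For Sdha the fold change was 0.35 (SE 0.23, interval −0.21 to 0.91, limma adjusted p = 0.691).

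Fh1 encodes fumarase, which turns fumarate into malate. Its brighter probe maps to chromosome 1 from 177531659 to 177534089, a span of 2431 bases that is longer than the other members' probe spans of 60 bases. The levels of Fh1 were 6.97, 6.29 and 7.07 in controls and 7.32, 7.14 and 7.14 with the antagomir. The groups did not overlap on this probe, and the fold change was 0.42 (SE 0.24, interval −0.16 to 1.00, limma adjusted p = 0.691). On its other probe (chromosome 1 from 177531530 to 177531589) the levels were 6.34, 5.78 and 6.55 against 6.65, 6.65 and 6.46. There antagomir array 3 was below control array 3, and the fold change was 0.36 (SE 0.23).

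Mdh2 encodes the mitochondrial malate dehydrogenase, which regenerates oxaloacetate and takes part in the malate-aspartate shuttle (probe on chromosome 5 from 136266157 to 136266216). The levels of Mdh2 were 9.11, 8.84 and 9.22 in controls and 9.35, 9.38 and 9.38 with the antagomir. The antagomir arrays lay within an SD of 0.016 and above all control arrays, and the range over the 6 arrays, 0.54, was the narrowest of the members. The fold change was 0.31 (SE 0.15, interval −0.054 to 0.68, limma adjusted p = 0.691), the smallest unadjusted limma p of the 9 (0.082).

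The 9 genes varied together from array to array. Over the 6 arrays, the 36 pairs of members had a median Pearson r of 0.948, from 0.752 (Ogdh and Mdh2) to 0.996 (Idh3b and Sdha); the points share the scaling of each array, and r is given as a description. With the control mean set to 0, their mean level was 0.17, −0.40 and 0.22 in controls (SD 0.35) and 0.51, 0.23 and 0.33 with the antagomir (SD 0.14). Antagomir array 2 thus lay level with control array 3. Without control array 2 all 9 remained higher, from 0.065 (Ogdh) to 0.21 (Idh2), but the median was 0.18, against 0.048 for all genes, of which 60.4% were higher. With slide row as a block, which sets control array 3 alone against the antagomir arrays because row 1 holds controls only, the median was 0.14 and 9 of 9 were higher, against 55.3% of all genes. The part of the slide row in these differences was not tested.

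The size of the difference depended on how the arrays were scaled. Before scaling, the signal of Cs was 180901, 140012 and 180354 in controls and 181028, 165833 and 187720 with the antagomir. Control array 2 was again the lowest, and antagomir array 2 lay below the other 2 controls. The 75th percentile itself was 441, 456 and 421 in controls and 359, 363 and 397 with the antagomir, lower on every antagomir array. Without any scaling the median of the members was 0.11, with all 9 above 0 (Ogdh by only 1.8e-05), while 30.8% of all genes were higher. With quantile scaling all 9 were higher (median 0.21), whereas 45.8% of all genes were, with a median of −0.030. There Ogdh was at only 0.039, Mdh2 at 0.055, Idh2 at 0.078 and Cs at 0.093. The remaining members ran from 0.21 (Sdha) to 0.29 (Fh1). In the authors' deposited table, whose arrays share nearly the same distribution as after quantile scaling, all of the 9 were higher, against 45.7% of all genes. Scaled by 8 spike-in controls, the median was 0.43, against 0.17 for all genes, of which 71.7% were higher. Scaled by the median over all gene probes, the 9 members were all lower (median −0.13), 13% of all genes were higher and the median of all genes was −0.38. That median signal was 23.4 to 31.0 on 5 arrays and 74.8 on antagomir array 3. The members' median lay above that of all genes under each of these scalings, while its sign depended on the scaling. Subtracting a single value per array shifts all genes alike and cannot change that order. Only quantile scaling and the authors' table, which resembles it, could have done so.

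**Figure D2:**
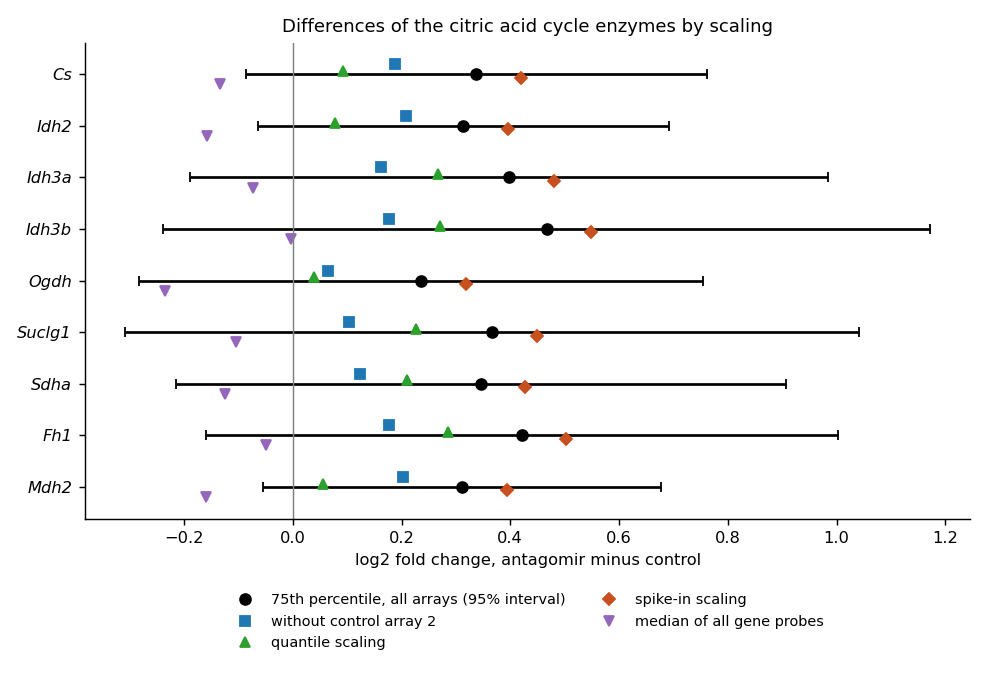
Log2 fold change, antagomir minus control, of the 9 enzymes: black points and bars give the value and its 95% interval with 75th percentile scaling on 6 arrays, and coloured symbols the value without control array 2 or with another scaling. All bars cross 0, the values without control array 2 lie between 0.065 and 0.21, and those scaled by the median of all gene probes lie below 0.

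Because these are pieces of heart, fewer cells of a type and less RNA per cell cannot be told apart. Markers of other cell types differed between the groups, and their part in the members' values was not tested. Cardiomyocyte markers were higher for 12 of 12 (median 0.23), with a summed level, in multiples of the 75th percentile, of 3869 to 4508 in controls and 4603 to 5009 with the antagomir. With quantile scaling 6 of these 12 were higher (median 0.013). On control array 2 the mean of the cardiomyocyte markers was −0.24 relative to the control mean, the lowest of the 6 arrays, as for the members. Fibroblast markers were lower for 8 of 8 (median −1.88, or 7 of 8 with spike-in scaling), with summed levels of 742 to 975 against 383 to 570, and their mean was highest on control array 2 (0.42). They differed unequally: Dcn was at −0.0016 (SE 0.17), Pdgfra at −0.35 (SE 0.21) and Tcf21 at −0.53 (SE 0.36). The other 5 ran from −3.71 (Postn) to −1.59 (Lum). Dcn and Pdgfra were not highest on control array 2. With limma, 0 of the 8 passed the adjusted threshold and 5 were lower with an unadjusted p under 0.05, against 4.16% of all genes. Scaled by the median of all gene probes, 4 of the 8 passed the adjusted threshold, as did 4 of 4 white adipocyte and 4 of 5 atrial markers. Of those 5 atrial markers, 3 were higher with that scaling. There limma gave every member the same SE, 0.60, although their spreads differed, and 0.866% of all genes passed. These calls are therefore given as counts, and no conclusion is drawn from them. With 75th percentile scaling, the type I collagen gene Col1a1 had a level of 5.89 on control array 2 and 5.68 and 4.91 on control arrays 1 and 3.

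Relative to the mean of the 12 cardiomyocyte markers on the same array, the members differed less between the groups. Those markers themselves ran from 0.071 (Myh6) to 0.45 (Pln), so the relative values depend on which markers are averaged. The members' median difference was 0.099, with 8 of the 9 higher and Ogdh at −0.011. The largest was Idh3b at 0.22, with values of 0.17, −0.34 and 0.17 in controls and 0.38, 0.063 and 0.21 with the antagomir. Cs was at 0.090, with 0.013, −0.059 and 0.046 in controls and 0.090, 0.12 and 0.063 with the antagomir. The median was 0.16 with quantile scaling, 0.050 without control array 2 and 0.024 with slide row as a block. Relative to 10 genes of mitochondrial structure and protein import (Vdac1, Tomm20 and others) the median was 0.11, and relative to the other 9 subunits of the cycle it was −0.0058, with 4 members higher and 5 lower.

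Markers of adipocytes and of atrial muscle, other cells that a heart sample can hold, stand beside the members as well. White adipocyte markers were higher for 4 of 4 tested (median 3.02), with summed levels of 0.104 to 5.29 in controls and 2.19 to 16.9 with the antagomir. Plin1 was above background on 4 arrays, Adipoq and Retn on 5 and Lep on 0, so part of these differences involves values near background. With slide row as a block the median of the adipocyte markers was 0.61 and that of the atrial markers 1.79. The mean of the adipocyte markers was lowest on control array 1 (−2.49), not on control array 2 (0.075). Of the brown adipocyte markers, Elovl3 was above background on 0 arrays and Ucp1, the uncoupling protein that defines these cells, on 2, so neither was tested, and Cidea was at 0.28 (SE 0.17). Atrial markers were higher for 3 of 5 tested (median 3.10), with means of −1.18, −0.043 and 1.22 in controls and −1.53, 3.21 and 4.48 with the antagomir and summed levels of 400 to 659 against 33.7 to 827. The members were highest on antagomir array 1, where the atrial mean was the lowest of all 6 arrays. Only Nppa and Dkk3, the atrial markers lower with the antagomir (−1.71 and −1.56), were at their lowest on that array. Sln, Myl7 and Myl4 were each higher there than on control array 1, so the low mean does not describe all atrial markers. Endothelial markers were lower for 5 of 6 (median −0.17), with summed levels of 39.3 to 43.8 against 33.0 to 41.2, and 2 of them, Erg (−0.61, SE 0.17) and Emcn (−0.58, SE 0.23), had an unadjusted limma p under 0.05. Macrophage markers were lower for 4 of 5 (median −0.11), at 60.5 to 66.9 against 44.1 to 83.8. Skeletal muscle markers were higher for 2 of 3 tested (median 0.22), and for 1 of 3 without scaling or when scaled by the median of all gene probes. Among them Pvalb, parvalbumin, a calcium-binding protein of fast muscle, was at 1.16 (SE 0.17, limma adjusted p = 0.497), and is named after its value was seen because it had the smallest unadjusted p of the genes in the lists. Red blood cell markers were higher for 2 of 2 (median 0.57), but for 0 of 2 with slide row as a block (median −0.24).

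**Figure D3:**
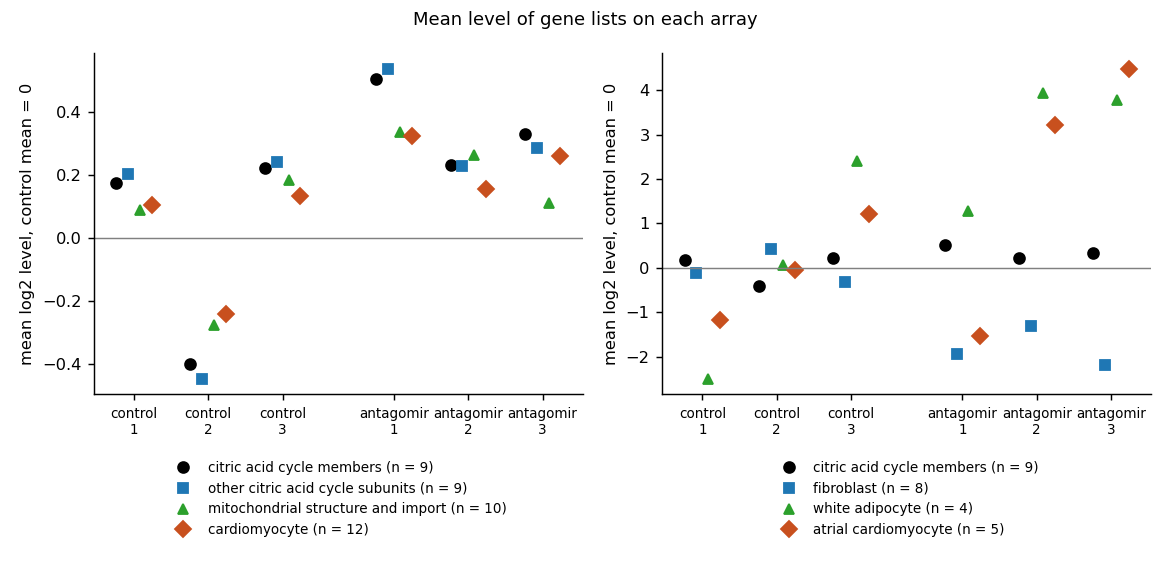
Mean log2 level of gene lists on each array, with the mean of the 3 control arrays set to 0; left, the 9 enzymes with the other subunits of the cycle, mitochondrial structure genes and cardiomyocyte markers; right, the enzymes with fibroblast, white adipocyte and atrial markers on a wider axis. On the left all 4 lists are lowest on control array 2, and on the right the fibroblast markers are lower on every antagomir array than on any control array.

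The rest of the cycle and its surroundings are given with 75th percentile scaling; scaled by the median of all gene probes, the median of each list that follows was below 0, except that of the relatives known from other tissues. Of the 9 other subunits, which complete the cycle's enzyme complexes, 9 were higher (median 0.38), 0 passed the adjusted threshold with limma and 0 had an unadjusted p under 0.05. Sdhd, a membrane anchor of succinate dehydrogenase, had a fold change of 0.35 (SE 0.18), and its antagomir arrays (7.64, 7.67 and 7.54) lay above its controls (7.41, 6.93 and 7.44). Sucla2, the ATP-forming beta subunit of succinyl-CoA synthetase, was at 0.44 (SE 0.27). Without control array 2 the median of the 9 other subunits was 0.13, and without scaling 7 of them were higher. Of 4 assembly factors of succinate dehydrogenase, 4 were higher (median 0.25), with Sdhaf1 at 0.32 (SE 0.17), Sdhaf3 at 0.30 (SE 0.18) and Sdhaf4 at 0.16 (SE 0.16). Their median was 0.12 without control array 2, and without scaling 2 of the 4 were higher.

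Of 13 genes of pyruvate entry, 11 were higher (median 0.35), 0 passed with limma and 1 had an unadjusted p under 0.05. That gene was Pdp2, a phosphatase that activates pyruvate dehydrogenase, at 0.85 (SE 0.31, limma adjusted p = 0.674). Its levels were 2.56, 1.49 and 2.43 in controls and 3.19, 2.84 and 2.98 with the antagomir, without overlap. Pdk4, a kinase that inhibits the same complex, was at 0.72 (SE 0.33), and Mpc2, of the mitochondrial pyruvate carrier, at 0.39 (SE 0.20). The kinase genes Pdk1 (−0.076, SE 0.16) and Pdk3 (−0.38, SE 0.22), named after their values were seen as the exceptions of this list, were lower. Without control array 2 the median was 0.15.

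Further lists hold genes that feed the cycle or share its substrates, and their counts stand beside the 62.6% of all genes that were higher. Of 10 genes of anaplerosis and of mitochondrial partners 8 were higher (median 0.40), with Pcx, pyruvate carboxylase, at 0.49 (SE 0.22), Got2, the mitochondrial aspartate aminotransferase, at 0.46 (SE 0.27), and Me3, a mitochondrial malic enzyme, at 0.49 (SE 0.30). Of 6 cytosolic counterparts 5 were higher (median 0.21), but only 2 without scaling, with Me1 at 0.40 (SE 0.17), Got1 at 0.43 (SE 0.24) and Idh1, the cytosolic NADP-dependent isocitrate dehydrogenase, at 0.23 (SE 0.16). Of 5 carriers of cycle intermediates 4 were higher (median 0.37), among them Slc25a11, the 2-oxoglutarate carrier, at 0.38 (SE 0.20) and Slc25a10, the dicarboxylate carrier, at 0.38 (SE 0.22). Slc25a1, the citrate carrier, was the exception at −0.42 (SE 0.17, limma adjusted p = 0.687), the 1 gene of these lists lower with an unadjusted p under 0.05. Its levels were 0.26, 0.60 and 0.21 in controls and −0.24, 0.022 and 0.016 with the antagomir, without overlap, and control array 2 was its highest array. None of these 3 lists had a gene past the adjusted threshold with limma. Without control array 2 their medians were 0.12, 0.12 and 0.12.

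Some relatives of the members are known mainly from other tissues. Csl, a citrate synthase-like gene close to Cs in sequence, was at 0.41 (SE 0.22), and binding of Cs transcripts to its probe was not tested. Dhtkd1, which acts on 2-oxoadipate in lysine breakdown, was at 0.36 (SE 0.31) and Ogdhl, an Ogdh relative best known from brain, at 0.62 (SE 0.54). All 4 genes of this list were higher (median 0.51), with 0 at an unadjusted limma p under 0.05, and the median was 0.35 without control array 2. The remaining gene, Acod1, was at 1.73 (SE 1.65) and was well above background on only 3 arrays. Its levels ran from −6.71 on antagomir array 1 to −0.58 on antagomir array 2.

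Transcriptional regulators of mitochondrial genes were higher for 8 of 8 (median 0.26), and 0 passed with limma, at the adjusted threshold or unadjusted. Ppara, a nuclear receptor for fatty acids, was at 0.59 (SE 0.29), with levels of 3.96, 3.01 and 4.02 in controls and 4.35, 4.23 and 4.17 with the antagomir. Esrra, an oestrogen-related receptor, was at 0.41 (SE 0.22), and Tfam, which maintains and transcribes mitochondrial DNA, at 0.35 (SE 0.20). Without control array 2, 6 of the 8 were higher (median 0.14), and without scaling 4 were (median 0.021). The 10 genes of mitochondrial structure and import were higher for 10 of 10 (median 0.26, and 0.12 with 9 higher without control array 2), 0 of them with an unadjusted limma p under 0.05. Among them the matrix chaperones Hspa9 and Hspd1 were at 0.29 (SE 0.18) and 0.31 (SE 0.20), and the import pore gene Tomm40 at 0.22 (SE 0.14).

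**Figure D4:**
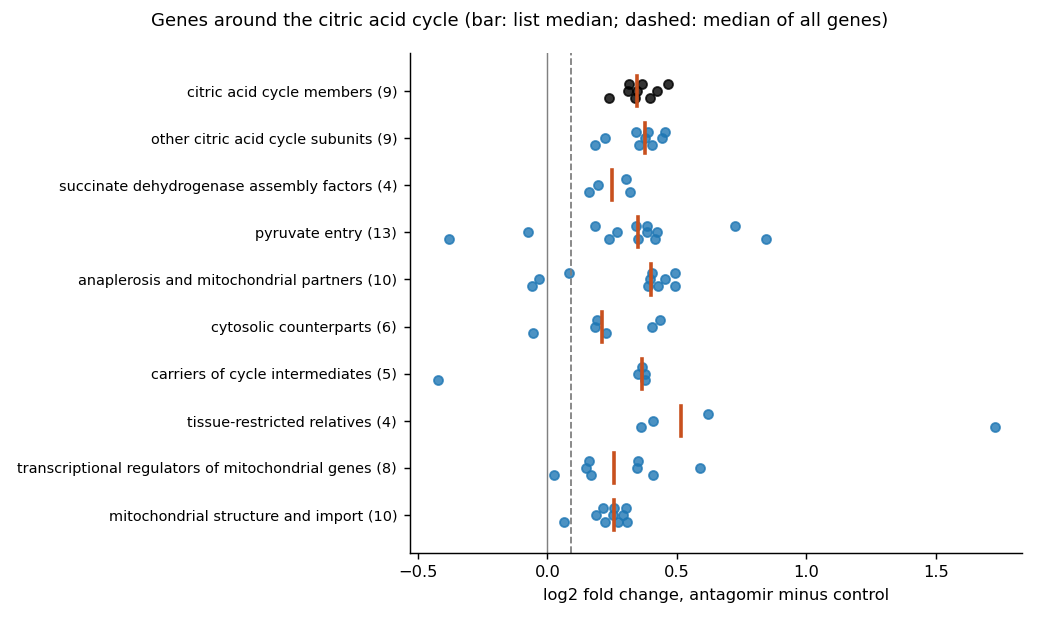
Log2 fold change, antagomir minus control, with 75th percentile scaling, of the 9 enzymes (black) and of genes of the surrounding lists (blue), 1 point per gene, with the median of each list (orange bar), the median of all genes, 0.092 (dashed), and the number of genes in brackets. Every list median lies right of the dashed line, and single genes such as Slc25a1 at −0.42 and Pdk3 at −0.38 lie left of 0.

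The genes whose pattern over the 6 arrays was most like the mean of the members were sought among all genes outside the lists. They were Oplah, 5-oxoprolinase of the glutathione cycle (Pearson r = 0.9996), Penk, proenkephalin (0.999), Atp8a1, a phospholipid flippase (0.999), an Ensembl transcript without a symbol (0.999) and Lrg1 (0.998), a secreted glycoprotein. With 6 points and 22991 genes, high values of r occur readily, and these are a description. Their fold changes were 0.50 (SE 0.27) for Oplah, 1.33 (SE 0.66) for Penk, 0.46 (SE 0.26) for Atp8a1, 0.44 (SE 0.25) for the Ensembl transcript and 0.61 (SE 0.34) for Lrg1. Among the members, Sdha followed the mean of the other 8 most closely (r = 0.996) and Mdh2 least (r = 0.897).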

How the data were processed

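Spots were read with Agilent Feature Extraction 10.7.1.1, per the submitters' processing notes. Its deposited output gives an intensity per spot, from which background was already taken off, per the file headers, and which is not scaled between arrays. The authors' deposited table holds log2 values normalised by a method not named in the sources used here. Its sorted columns differed between arrays by at most 0.00143 in log2 units, as they do after quantile scaling. It is therefore not a scaling independent of the quantile one. Control spots and outlier spots were left out, spots of a probe were averaged, and the 75th percentile of each array was subtracted after taking log2. The test covered 31716 probes that reached well above background on 3 or more of the 6 arrays, and a gene's brightest probe stood for it. Probes were named through RefSeq (GRCm38.p6) accessions, symbols or synonyms: 26582 by accession, 2602 by symbol, 492 by synonym, and 26005 kept the file's name. Probe positions come from the array's design, in mm9.

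The comparison used limma 3.58.1 under R 4.3.3 (moderated linear model, two-sided, Benjamini-Hochberg over all genes), and tables were made with Python 3.11.15, pandas 2.3.3, scipy 1.17.1 and matplotlib 3.10.9. The fit was tested on simulated data. Of genes given a log2 change of 0.3, 0% were called, and of those given a change of 1, 21.3% were. A missing call therefore does not show that a difference as small as the members' is absent. Members and lists were chosen with earlier results of these data known. Of each list, up to 3 genes with the smallest p are named, or all that passed; 1 gene that this rule names is not reported here. The samples' replicate numbers were not treated as pairs: deviations of same-numbered arrays correlated at 0.22, 0.14 and −0.049. Alternatives covered scaling, background correction, filters, probe choice, moderation, weights, blocks and each array left out.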

Additional observations from a re-analysis of the deposited data

How the results depend on the processing

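None of the 9 members passed the adjusted threshold with limma under any of 21 alternatives, and those with an unadjusted p under 0.05 were Cs, Idh2 and Mdh2 with a variance trend and robust moderation and Idh2 with array weights. With the median of all gene probes as the scale, 0 members and 0 of the other subunits of the cycle were higher, and the members' median was −0.13. There Cs was at −0.13, Idh2 at −0.16, Idh3a at −0.073, Idh3b at −0.0040, Ogdh at −0.23, Suclg1 at −0.10, Sdha at −0.13, Fh1 at −0.050 and Mdh2 at −0.16, and 199 genes of the whole table passed, against 3 with the 75th percentile, 8 with array weights and 0 to 3 under the others. With that scale limma gave every member the same SE, 0.60, so no conclusion is drawn from the 199 calls. Under every other alternative all 9 members were above 0, as were 30.8% to 73.6% of all genes, with medians from 0.11 (no scaling) to 0.48 (without control array 3). The other filters, the changes of moderation and the replicate block left each member's fold change as it was. The sign under those alternatives is therefore not further support. The median was 0.18 without control array 2, 0.43 without control array 1 and 0.30 to 0.41 with an antagomir array left out. It was 0.22 with normexp and quantile scaling, 0.21 with the authors' table and 0.27 with array weights, whose estimation stopped short of its tolerance. With replicate number as a replicate block it was 0.35, 0 members passed and 0 genes of the whole table did. No scaling, spike-in scaling and the median of probes above background on all arrays (0.36) were added after the data were seen. The number of arrays, 3 in each group, limits what could be called.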
